A study of Mus musculus with 2 samples.

Results

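Transcripts of the TAM receptors and of the apoptotic cell clearance machinery around them were followed through single cells of visceral adipose tissue (VAT) from obese mice and from mice placed on caloric restriction (CR). The set held 9 genes of the 27998 in the count tables, grouped by their known function. They were the receptors Axl, Mertk and Tyro3, their ligands Gas6 and Pros1, the phosphatidylserine receptor Timd4, the bridging protein gene Mfge8 and the scavenger receptors Stab1 and Lrp1.

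Dying cells expose phosphatidylserine on their surface, and phagocytes take them up through receptors that bind this lipid directly or through a soluble bridge. Axl, Mertk and Tyro3 are receptor tyrosine kinases of the bridged kind. Gas6 ties the lipid to each of them, and protein S (the Pros1 product) is known to do so for Mertk and Tyro3. Both ligands are matured by vitamin K-dependent carboxylation. In adipose tissue such uptake falls mainly to macrophages (MØs), which gather around dying adipocytes.

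Live CD45+ cells had been sorted from perigonadal VAT, and 1 library per group was made with v2 Chromium Single Cell 3′ chemistry. Both groups were male C57BL/6J mice bought at 6 weeks of age, acclimated for 2 weeks and fed a diet with 60% of energy from fat and 0.3% cholesterol for 24 weeks, with a weekly dose of 5 mg/kg of an antisense oligonucleotide against the LDL receptor. The obese group was then sampled, whereas the CR group received 70% of its free intake of the same diet for a further 2 weeks. The CR sample is labelled as life-long restriction, while the study's methods give this short course after obesity. The oligonucleotide and the diet were therefore shared by both groups, no lean group was analysed here, and the number of mice behind each library was not given in the sources used here.

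With 1 library per group no test between the groups was possible. Levels are the summed UMIs of a gene in a cell class scaled to the class total (CPM), ratios are log2 of CR over obese with 5 CPM added to each side, and brackets hold exact 95% intervals (Poisson for a level, conditional for a ratio, binomial for a share) that cover counting error only. A gene was measured in a comparison with at least 20 UMIs in both arms together. There were 5795 obese barcodes with a median of 6379 UMIs and 3562 CR barcodes with a median of 4335. Of the barcode sequences, 28 occurred in both. The limits on gene number (at least 200), mitochondrial share and UMIs were together passed by 90.8% and 83.9% of barcodes. Removing the shared barcodes left the main results given here inside their intervals.

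Clusters were built without the 9 genes and named from marker lists that hold none of them. The MØs comprised Fcgr4-high cells (526 obese and 612 CR cells, led by Fcgr4 and Lipg), lipid-associated MØ-like cells (900 and 158, led by Gpnmb, Mmp12 and Atp6v0d2) and Lyve1-high MØ-like cells (471 and 115, led by Ccl8, Cbr2 and Ccl12). A further cluster was monocyte-like (869 and 233, led by Saa3, Slpi and Chil3). It was left out of the MØ pool, although the 3 C1q genes, known from MØs, summed to 7320 and 5950 CPM in it, against 11200 to 18700 CPM in the MØ classes. Although the sort was for CD45+ cells, 3.14% of obese and 17.9% of CR cells were non-haematopoietic, with 145 and 312 fibroblast-like cells. Ptprc, which encodes CD45, was found in 14.2% of the cells of the main fibroblast-like cluster against 89.9% of Fcgr4-high MØs. The fibroblast-like class also holds a subcluster of 46 obese and 15 CR cells that does not share this low Ptprc. Ptprc was found in 84.8% and 93.3% of its cells, and its C1q genes summed to 10300 and 5390 CPM.

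The genes lie on GRCm38 (GENCODE M21) at chr7:25757273-25788705 (Axl), chr2:128698956-128802894 (Mertk), chr2:119797733-119818104 (Tyro3), chr8:13465374-13494490 (Gas6), chr16:62854307-62929346 (Pros1), chr11:46810800-46844332 (Timd4), chr7:79133768-79149060 (Mfge8), chr14:31139013-31168641 (Stab1) and chr10:127538161-127621148 (Lrp1). Axl, Gas6, Mfge8, Stab1 and Lrp1 are on the minus strand. Genes of the other strand overlap Mertk (Gm14011), Gas6 (Tmem255b), Stab1 (Nt5dc2) and Lrp1 (Gm16217), and Gm23172 overlaps Mertk on its own strand. Cell Ranger, run with its defaults, counts reads on the strand of the transcript, so partners on the other strand are told apart and the Gm23172 overlap is not.

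The 250 bases before the RefSeq start (GRCm38.p6) are shown for the receptor, the low receptor and the ligand that the results below turn on. They are Axl at chr7:25788734-25788983 (minus strand), Mertk at chr2:128698665-128698914 (plus strand) and Gas6 at chr8:13494536-13494785 (minus strand), 5′ to 3′ along the gene, with matches to the searched motifs in capitals.
Axl: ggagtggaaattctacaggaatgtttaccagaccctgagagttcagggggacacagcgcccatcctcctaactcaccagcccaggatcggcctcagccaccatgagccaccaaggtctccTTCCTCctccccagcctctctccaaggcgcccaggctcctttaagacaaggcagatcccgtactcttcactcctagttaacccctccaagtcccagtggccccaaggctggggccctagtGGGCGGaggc
Mertk: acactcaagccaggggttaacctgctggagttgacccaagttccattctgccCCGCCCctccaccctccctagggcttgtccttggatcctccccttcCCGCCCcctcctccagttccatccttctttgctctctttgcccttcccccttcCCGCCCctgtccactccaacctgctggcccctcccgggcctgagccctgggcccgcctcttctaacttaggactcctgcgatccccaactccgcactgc
Gas6: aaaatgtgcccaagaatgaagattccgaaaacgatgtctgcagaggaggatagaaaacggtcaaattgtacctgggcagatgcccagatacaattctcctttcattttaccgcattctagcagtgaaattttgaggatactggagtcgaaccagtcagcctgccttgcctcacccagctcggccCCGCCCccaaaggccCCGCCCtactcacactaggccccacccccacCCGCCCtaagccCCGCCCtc
Of the motifs searched on both strands, the GC box GGGCGG was found in 7 of the 9 upstream windows and in 32.7% of the 32851 windows of all genes. Gas6 held 4 matches, Mertk 3 and Axl 1, whereas the windows of Timd4 and Stab1 held none. The core GAGGAA, which PU.1 can bind, was found in Axl, Mfge8 and Stab1 against 23.3% of all windows. CCAAT was found in Timd4 and Stab1 (33.8% of all windows), AGGTCA in Timd4 alone (14.0%), and neither TATAAA (12.4%) nor TGANTCA (6.75%) in any of the 9. The counts come from the 3′ end of transcripts and do not read these windows, so the matches are a description of sequence.

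Axl was the most abundant TAM receptor transcript in these cells and, among MØs, was highest in the Fcgr4-high class. Its level there was 271 CPM [252 to 290.0] in obese tissue and 417 CPM [395 to 439] under CR, from 787 and 1389 UMIs, a ratio of 0.61 [0.49 to 0.74] or 1.53-fold. The ratio was 0.24 when the libraries were clustered without alignment. Lipid-associated MØ-like cells carried 156 and 159 CPM and differed by 0.025 [−0.18 to 0.23], so no difference was detectable there at this depth. Lyve1-high MØ-like cells were the lowest of the MØs, at 75.4 CPM in obese tissue and 104 CPM under CR (ratio 0.43 [0.081 to 0.78]). Within each library the order was the same, Fcgr4-high cells first and Lyve1-high cells last.

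Outside the MØs, fibroblast-like cells had as much Axl as Fcgr4-high MØs of obese mice, with 301 CPM [267 to 338] in obese tissue and 267 CPM [245 to 291] under CR. The ratio, −0.17 [−0.38 to 0.038], included 0, and it ran from −0.50 to 0.032 over 18 alternatives. Monocyte-like cells held 153 and 162 CPM. The conventional dendritic cells were low, at 21.1 and 17.0 CPM in type 1 (DC1-like) cells and 29.0 and 33.8 CPM in type 2 (DC2-like) cells. T cell-like cells, which should lack the receptor, held 37.5 and 34.2 CPM, and B cell-like cells 60.6 and 48.9 CPM, so that the levels in dendritic cells did not stand above this background.

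Thinned to 1500 UMIs per cell, an Axl UMI was found in 30.4% of obese and 44.0% of CR Fcgr4-high MØs (69.4% and 80.6% unthinned). The same share was 3.92% and 3.87% in T cell-like cells (10.2% and 7.51% unthinned), whose median depth was 3388 and 2649 UMIs against 5030 and 4910 UMIs. Set against the other MØs of its library, the Fcgr4-high class had 1.96-fold more Axl in obese and 2.94-fold more in CR VAT (log2 0.97 [0.85 to 1.09] and 1.56 [1.38 to 1.74]). Fcgr4-high MØs that differ in MHC class II were compared as well, in a split chosen after seeing the data. Cells with at least 5 of 1500 UMIs from 6 MHC class II genes made up 363 of 526 in obese and 104 of 612 (17.0%) in CR VAT. Axl was higher in CR on both sides of that limit, at 253 CPM against 519 CPM in cells at or above it and 295 CPM [230.0 to 371] against 403 CPM [359 to 451] in cells under it. The higher level in CR was thus found among cells on either side of that limit, though the intervals of the cells under it overlapped.

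Mertk, the receptor best known for uptake by resident MØs, ran the other way across the classes. Lyve1-high MØ-like cells held 35.5 CPM in obese tissue and 31.3 CPM under CR, and lipid-associated MØ-like cells 23.9 and 27.7 CPM, with ratios of −0.16 [−0.73 to 0.39] and 0.18 [−0.26 to 0.61]. In Fcgr4-high MØs it stood at 15.5 CPM (45 UMIs) in obese and 2.40 CPM (8 UMIs) in CR VAT, a ratio of −1.47 [−1.86 to −0.96] that was −0.54 [−1.20 to 0.15] without alignment. T cell-like cells held 4.69 and 1.63 CPM, so the CR value of the Fcgr4-high class was near background. In the MHC class II split the Mertk ratio was −0.50 [−2.11 to 1.25] at or above the limit and −0.79 [−1.92 to 0.70] under it, from 2 CR UMIs on each side, so that no difference was detectable there. The class with the most Axl in CR VAT was thus the MØ class with the least Mertk.

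Few cells carried UMIs of both receptors. After thinning, 5 of 526 obese and 2 of 612 CR Fcgr4-high MØs had both Axl and Mertk, 0.95% and 0.33%, where the product of the separate shares was 0.75% and 0.29%. Capillary endothelial-like cells of CR VAT reached 32.1 CPM of Mertk [20.6 to 47.8], the level of Lyve1-high MØ-like cells. Tyro3 was close to absent, with 6 UMIs in all kept obese cells and 3 in all kept CR cells. None of the Fcgr4-high or Lyve1-high MØs had a Tyro3 UMI, which allows up to 1.03 CPM (3 counts) in obese Fcgr4-high MØs.

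**Figure D1:**
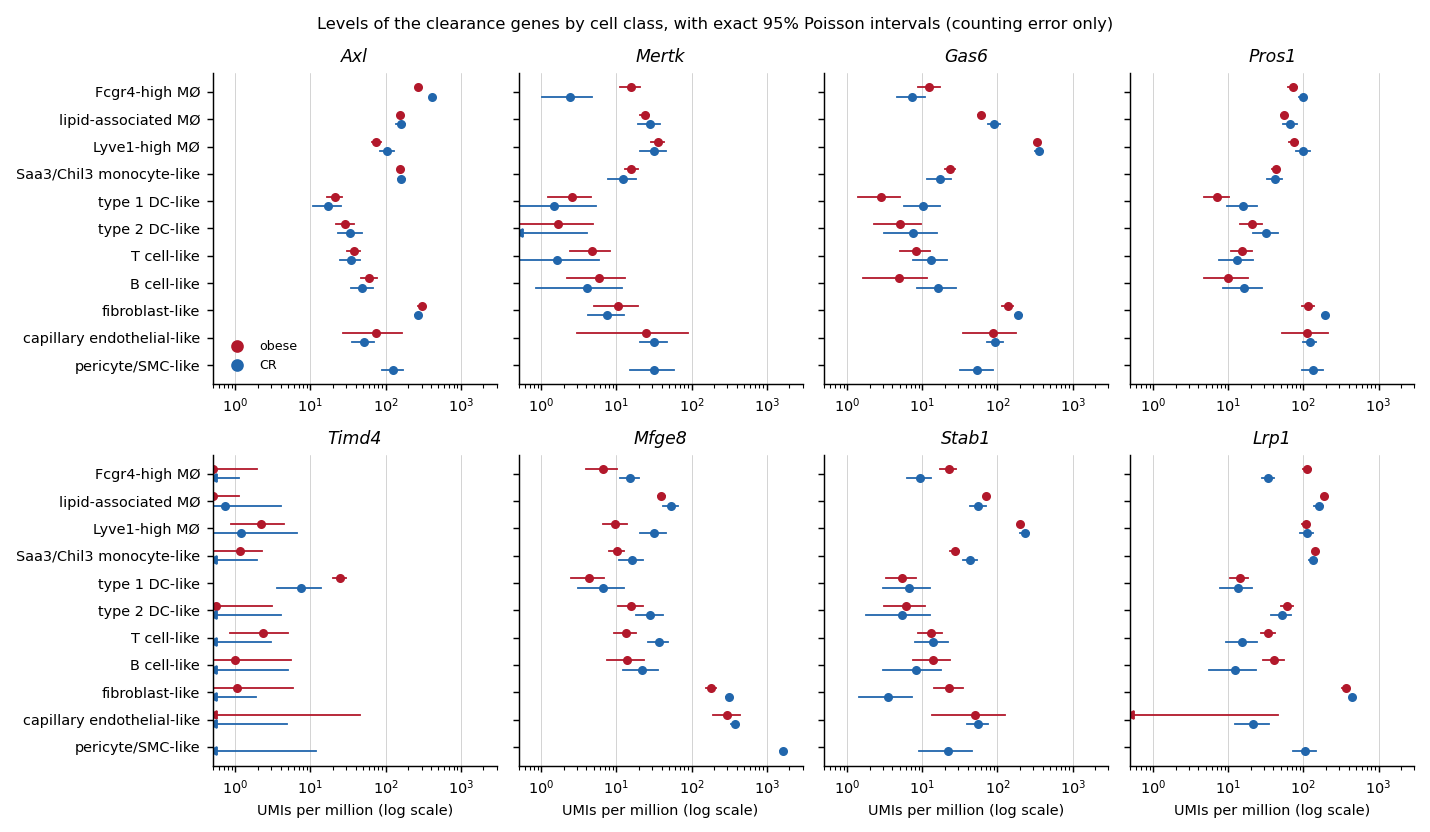
Levels of 8 of the 9 genes (Tyro3, with 6 and 3 UMIs, is left out) in CPM on a log axis, by cell class (vertical axis), in obese (red) and CR (blue) VAT. Points are levels of a whole class, bars are exact 95% Poisson intervals, triangles at the left edge mark 0 UMIs, and classes under 15 cells in a library are not drawn. Among the classes drawn, Axl is highest in CR Fcgr4-high MØs (417 CPM), Gas6 in Lyve1-high MØ-like cells, Timd4 in obese DC1-like cells and Mfge8 in pericyte or smooth muscle-like cells.

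Gas6, the ligand that binds every TAM receptor, was concentrated in the class where Axl was lowest among MØs. Lyve1-high MØ-like cells held 339.5 CPM [320 to 360] in obese tissue and 357 CPM [317 to 400] under CR, and the ratio of 0.071 [−0.12 to 0.26] included 0, though it was 0.54 without limits on mitochondrial share and UMIs. This class exceeded the other MØs 6.37-fold in obese and 9.92-fold in CR VAT (log2 2.67 [2.54 to 2.81] and 3.31 [3.05 to 3.57]). Those other MØs held 49.05 and 31.46 CPM. Their mix differed, since Fcgr4-high cells gave 19.0% of MØ UMIs in obese and 60.3% in CR VAT. The part of that mix in these folds was not tested. Fcgr4-high MØs carried only 12.4 and 7.20 CPM, about the 8.20 and 13 CPM of T cell-like cells. Lipid-associated MØ-like cells lay between them at 60.6 and 90.5 CPM, higher in CR by 0.54 [0.27 to 0.81]. Receptor and ligand thus peaked in different MØ classes in both libraries.

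Fibroblast-like cells also had Gas6, at a level above that of Fcgr4-high and lipid-associated MØs. It was 137 CPM in obese tissue and 189 CPM under CR (ratio 0.45 [0.17 to 0.74], and 0.162 at the lowest of 18 alternatives). These levels include the C1q-bearing subcluster of 46 obese and 15 CR cells. Within the stroma, Axl and Gas6 were again highest in different cells. The fibroblast-like subcluster led by Pi16 and Mfap5 held 520 and 530 CPM of Axl but 26.0 and 45.7 CPM of Gas6. The subcluster led by Dcn, Gpx3 and Inmt held 253 and 171 CPM of Axl with 314 and 303 CPM of Gas6. Lymphatic endothelial-like cells, of which only CR VAT had any, reached 504 CPM of Gas6 [369 to 672] over 13 cells.

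Single cells with both Axl and Gas6 were counted after thinning. They numbered 15 of 471 obese and 8 of 115 CR Lyve1-high MØ-like cells, 3.18% [1.79 to 5.20] and 6.96% [3.05 to 13.2], where the product of the separate shares was 4.02% and 4.88%. In fibroblast-like cells there were 3 of 145 and 9 of 312, 2.07% and 2.88%, below the products of 5.48% and 5.83%. The product lay inside the interval of the MØs in both libraries and of obese fibroblast-like cells [0.43 to 5.93], and above that of CR fibroblast-like cells [1.33 to 5.41].

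The source of Gas6 transcripts differed between the libraries. MØs held 76.2% of the Gas6 UMIs of obese VAT and 40.5% of those of CR VAT, and Lyve1-high MØ-like cells alone 49.3% [47.2 to 51.4] and 27.0% [24.4 to 29.7]. Non-haematopoietic cells held 6.48% [5.49 to 7.58] and 46.4% [43.4 to 49.4], while they made up 2.66% and 17.8% of all UMIs. CD45+ cells had been sorted, and the yield of stromal cells from the sort and their number in the tissue cannot be told apart. MØs as a whole held 52.3% and 57.1% of Axl UMIs. The Fcgr4-high class alone held 16.7% [15.6 to 17.8] of all Axl UMIs in obese and 46.9% [45.1 to 48.7] in CR VAT, while it made up 7.21% and 18.9% of all UMIs.

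Pros1, the gene of protein S, was spread more evenly. Fcgr4-high MØs held 72.6 CPM in obese tissue and 98.4 CPM under CR (ratio 0.41 [0.17 to 0.66]) and Lyve1-high MØ-like cells 74.2 and 100.0 CPM (0.41 [0.050 to 0.76], but −0.076 after thinning). Lipid-associated MØ-like cells, at 54.4 and 66.4 CPM, differed by 0.27 [−0.047 to 0.57]. Fibroblast-like cells were highest, at 115 and 194 CPM (0.73 [0.43 to 1.03], and 0.33 at the lowest of 18 alternatives), and T cell-like cells held 15.2 and 13 CPM. In Fcgr4-high MØs Pros1 was therefore the more abundant ligand transcript. It stood at 72.6 CPM against 12.4 CPM of Gas6 in obese and 98.4 CPM against 7.20 CPM in CR VAT. These are counts per molecule at the 3′ end and so without a length effect. Protein S is known as a ligand of Mertk and Tyro3 rather than Axl. In this class Mertk was near background in CR VAT and Tyro3 had no UMI.

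Axl and Pros1 occurred in the same thinned cell in 26 of 526 obese and 46 of 612 CR Fcgr4-high MØs, 4.94% [3.25 to 7.16] and 7.52% [5.56 to 9.90]. The products of the separate shares, 3.53% and 6.32%, lay inside both intervals. The Pros1 ratio of Fcgr4-high MØs was −0.0010 without alignment, and the difference did not hold in both parts of the MHC class II split, with 66.1 CPM against 128 CPM in cells at or above the limit but 123 CPM against 93.2 CPM in cells under it. Non-haematopoietic cells held 7.04% of Pros1 UMIs in obese and 41.8% in CR VAT.

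Dendritic cells added little of either ligand. DC1-like cells held 2.79 CPM of Gas6 in obese tissue and 10.4 CPM under CR and 7.10 and 15.5 CPM of Pros1, with ratios of 0.98 [0.33 to 1.54] and 0.76 [0.16 to 1.34]. Each of these levels was under or near that of T cell-like cells and is read as background. Pros1 of DC2-like cells was 20.7 CPM [14.5 to 28.5] and 31.6 CPM [21.2 to 45.4], against 15.2 CPM [10.8 to 20.8] and 13 CPM [7.44 to 21.1] in T cell-like cells, so the intervals overlapped in obese VAT and did not in CR VAT.

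**Figure D2:**
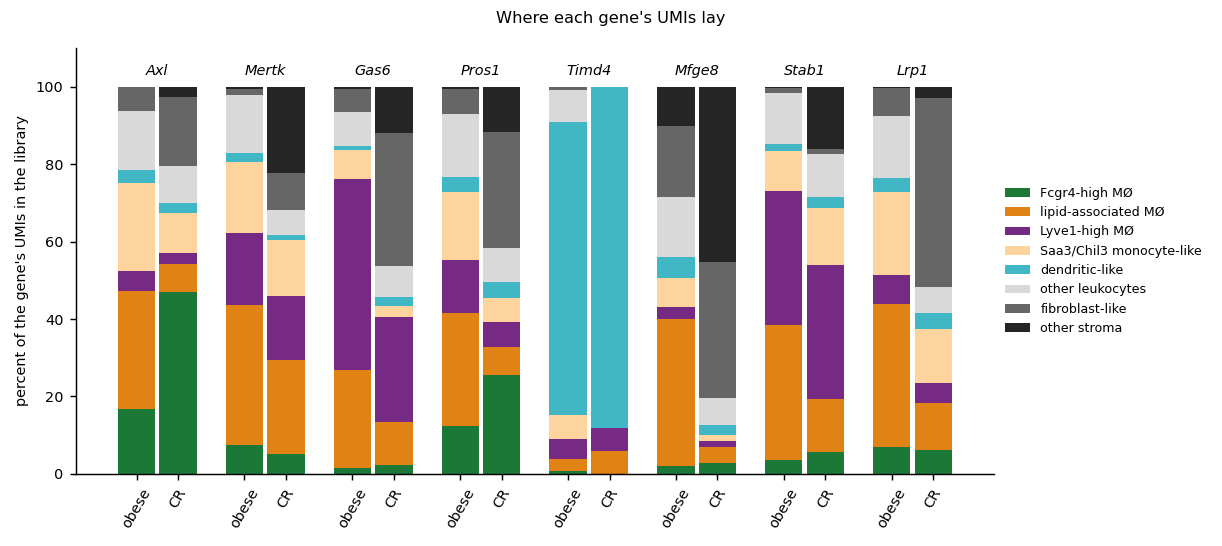
Percent of each gene's UMIs (vertical axis, 0 to 100) held by each group of cells in the obese and CR libraries (paired bars; colours mark cell groups). Stromal cells (grey and black) take 46.4% of Gas6 and 80.4% of Mfge8 UMIs in CR VAT, and Fcgr4-high MØs (green) 46.9% of Axl UMIs.

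Timd4 encodes TIM-4, a phosphatidylserine receptor known from resident MØs, yet its few UMIs lay mostly in DC1-like cells. These held 96 of 132 Timd4 UMIs of obese VAT (72.7% [64.3 to 80.1]) and 10 of 17 of CR VAT (58.8% [32.9 to 81.6]). Its level in DC1-like cells was 24.4 CPM [19.7 to 29.7] in obese tissue and 7.40 CPM [3.55 to 13.6] under CR, a ratio of −1.24 [−1.83 to −0.60] that rests on those 10 UMIs. Migratory dendritic cell-like cells held 5.21 CPM [1.07 to 15.2] and 15.2 CPM [4.93 to 35.4], from 3 and 5 UMIs. All MØs together had 12 and 2 UMIs, 0.78 and 0.36 CPM, and Lyve1-high MØ-like cells 2.18 and 1.21 CPM against 2.34 and 0 CPM in T cell-like cells. DC1-like cells are identified here by Xcr1, Clec9a and Irf8 among other markers, and their Axl, Mertk and Stab1 were at or under the T cell-like level in obese VAT.

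Mfge8 encodes a bridge from phosphatidylserine to alpha v integrins. Among MØs it was highest in lipid-associated MØ-like cells, at 39.6 CPM [35.6 to 43.8] in obese tissue and 52.6 CPM [41.1 to 66.2] under CR, 3.38-fold and 2.48-fold above the other MØs. The interval of the CR level overlapped that of T cell-like cells, 36.6 CPM [26.7 to 49.0]. Pericyte or smooth muscle-like cells of CR VAT (56 cells) reached 1624 CPM, capillary endothelial-like cells 375 CPM, and fibroblast-like cells 183 CPM in obese tissue and 312 CPM under CR. The fibroblast-like levels include the C1q-bearing subcluster, and their ratio of 0.75 was 0.295 at the lowest of 18 alternatives. Non-haematopoietic cells held 28.4% of Mfge8 UMIs in obese and 80.4% in CR VAT.

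Higher Mfge8 in CR was also seen in Fcgr4-high MØs (6.54 and 15 CPM, ratio 0.79 [0.28 to 1.27]) and Lyve1-high MØ-like cells (9.66 and 31.3 CPM, 1.31 [0.68 to 1.90]). The T cell-like cells, which should lack it, held 13.3 and 36.6 CPM (1.19 [0.64 to 1.71]), so those levels are at or below background and are not read as expression. The 8 fibroblast markers moved the same way, summing to 63.6 CPM in obese and 376 CPM in CR T cell-like cells (7 and 8 of 8 detected, Pdgfra at 0 in obese). In Fcgr4-high MØs they summed to 29.6 and 262 CPM and in Lyve1-high MØ-like cells to 35.2 and 263 CPM, with 8 of 8 detected. With an estimate of free RNA subtracted, the Mfge8 ratio was 0 in Fcgr4-high MØs and 1.55 in Lyve1-high MØ-like cells.

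Stab1, the gene of the scavenger receptor stabilin-1, followed Gas6 rather than Axl. Lyve1-high MØ-like cells held 200.1 CPM [185 to 216] in obese tissue and 229 CPM [198 to 264] under CR, with a ratio of 0.19 [−0.046 to 0.42]. They exceeded the other MØs 3.20-fold and 8.43-fold, where those held 59.04 and 22.75 CPM. The mix of those other MØs differed between the libraries, as given for Gas6. Fcgr4-high MØs held 22.4 and 9.30 CPM, lower in CR by a log2 ratio of −0.94 [−1.38 to −0.47], and the CR value lay under the 13.8 CPM of T cell-like cells. Without alignment that ratio turned to 0.17. Lymphatic endothelial-like cells of CR VAT held 438 CPM.

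Lrp1, the gene of a large endocytic receptor that takes up calreticulin-coated corpses, was highest in fibroblast-like cells, at 364 CPM in obese tissue and 445 CPM under CR. Among MØs it was highest in lipid-associated MØ-like cells, at 189 and 159 CPM (ratio −0.24 [−0.45 to −0.043], but 0.79 without limits on mitochondrial share and UMIs), while Lyve1-high MØ-like cells held 108 and 111 CPM. Fcgr4-high MØs held 112 CPM [100.0 to 125] and 33.9 CPM [27.9 to 40.7], a ratio of −1.59 [−1.87 to −1.30]. T cell-like cells held 34.0 and 15.5 CPM (−0.93 [−1.52 to −0.34]), so that background was lower in CR as well, and the CR value of Fcgr4-high MØs stood above it. The 10 lipid-associated MØ markers, all detected, summed to 2660 and 1810 CPM in Fcgr4-high MØs and to 1470 and 808 CPM in T cell-like cells, and their part in the Lrp1 difference was not tested. The Lrp1 ratio was −1.63 with free RNA subtracted but −0.55 [−0.95 to −0.15] without alignment. In the MHC class II split, Lrp1 of Fcgr4-high MØs at or above the limit was 151 CPM in obese tissue and 25.6 CPM under CR, and under it 45.0 and 27.6 CPM. Axl and Lrp1 of the same class differed between the libraries in opposite directions.

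Counted by class, differences of at least 2-fold between CR and obese were found for at most 2 of 7 measured members in the classes given here. With 7 members, 1 gene is already a larger share than each share of all genes given here. In Fcgr4-high MØs 0 of 7 measured members were higher and 2 lower (Mertk and Lrp1), against 5.17% of 9214 measured genes past that fold either way, and the members' median ratio was −0.51 against 0.10 for all genes. Without alignment neither of these 2 passed 2-fold. In lipid-associated MØ-like cells none of 7 passed (1.05% of all genes). In Lyve1-high MØ-like cells 1 of 7 did, Mfge8 upward (2.54%), in DC1-like cells 1 of 7, Timd4 downward (1.07%), and in fibroblast-like cells 1 of 7, Stab1 downward (6.71%). The Mfge8 levels of Lyve1-high MØ-like cells lay at or below background, as given above, and are not read as expression. The fibroblast value rested on a stromal subcluster of 46 obese and 15 CR cells that carried C1q transcripts at 10300 and 5390 CPM and Ptprc in 84.8% and 93.3% of cells. Without that subcluster, a choice made after seeing the data, the Stab1 ratio was 0.052 and the Lrp1 ratio −0.074.

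Between MØ classes of 1 library, more members stood apart. Against the other MØs, Fcgr4-high MØs had 0 members higher and 3 lower of 7 in obese (5.62% of all genes past 2-fold) and 1 higher and 5 lower in CR VAT (13.5%). Lipid-associated MØ-like cells had 1 higher and 1 lower in obese (4.05%) and 3 higher and 1 lower in CR VAT (10.8%). Lyve1-high MØ-like cells had 2 higher and 2 lower in obese (4.12%) and 3 higher and 1 lower in CR VAT (9.19%). Gas6 and Stab1 were higher in Lyve1-high MØ-like cells of both libraries. The other MØs were a different mix in each library, with Fcgr4-high cells at 19.0% of MØ UMIs in obese and 60.3% in CR VAT. Counts and folds against the other MØs are therefore not compared between the libraries.

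**Figure D3:**
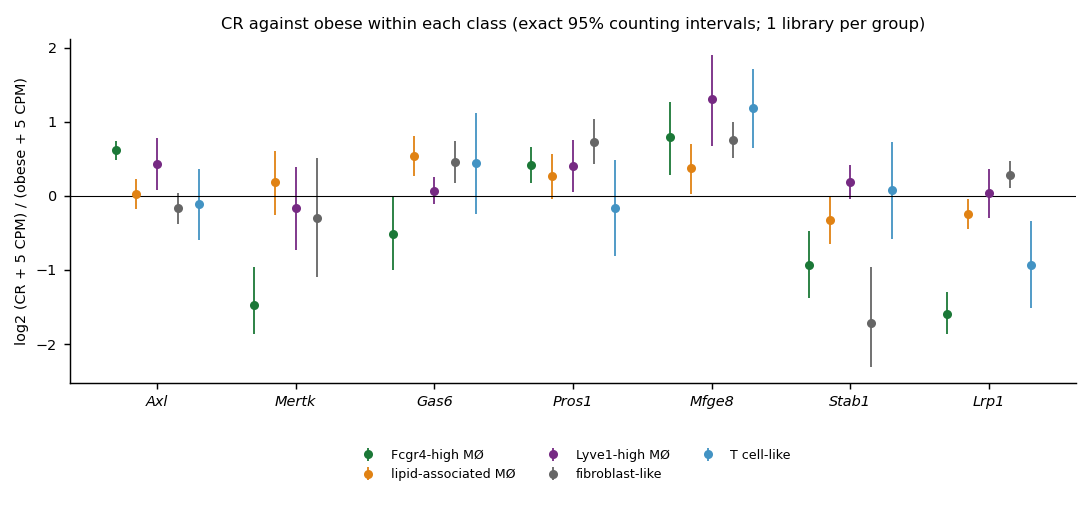
Log2 ratio of CR over obese (vertical axis, 5 CPM added to each side) for the 7 measured genes (horizontal axis) in 5 classes (colours), with exact 95% conditional intervals. In Fcgr4-high MØs (green) Axl lies at 0.61 and Lrp1 at −1.59, and Mfge8 is higher in CR in T cell-like cells (1.19) as in the MØs.

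Summed over the 3 MØ classes, the picture mixed levels with class sizes. Fcgr4-high MØs gave 19.0% of MØ UMIs in obese and 60.3% in CR VAT, lipid-associated MØ-like cells 60.1% and 24.8%, and Lyve1-high MØ-like cells 20.9% and 15%. Axl of the whole MØ pool was 161 CPM in obese tissue and 306 CPM under CR, Gas6 110 and 80.2 CPM, Stab1 88.6 and 53.7 CPM, and Lrp1 157 and 76.4 CPM. None of 7 members passed 2-fold (4.09% of all genes). When CR levels were weighted by the obese class mix, the Axl difference of 0.91 became 0.28, the Gas6 difference of −0.43 became 0.24, that of Stab1 went from −0.67 to −0.088 and that of Lrp1 from −0.996 to −0.32. Mertk of the pool, at 24.7 and 13 CPM, went from −0.72 to −0.052. With obese levels weighted by the CR class mix instead, Axl differed by 0.39 and Gas6 by −0.55. In that weighting Stab1 stood at −0.505, Lrp1 at −0.26 and Mertk at −0.22.

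These pool values depended on the limits on mitochondrial share and UMIs, of which the UMI limit alone removed 2 obese barcodes and 1 CR barcode. Without both limits Stab1 stood at 0.0034, Gas6 at 0.12, Mertk at −0.37 and Lrp1 at −0.18, while Axl stayed at 0.76. In that clustering 61.7% of CR and 18.3% of obese lipid-associated MØ-like cells were over the mitochondrial limit, 31.9% and 5.18% of Lyve1-high MØ-like cells, and 6.35% and 5.50% of Fcgr4-high MØs. The removed cells were richer in several members. CR Lyve1-high MØ-like cells over the limit (75 cells, median 2459 UMIs) held 1038 CPM of Gas6 and 732 CPM of Stab1, against 305 and 178 CPM in those within it (160 cells, median 6468 UMIs). CR lipid-associated MØ-like cells over the limit held 687 CPM of Lrp1 and 421 CPM of Mfge8 against 177 and 57.8 CPM. What these cells are was not tested.

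**Figure D4:**
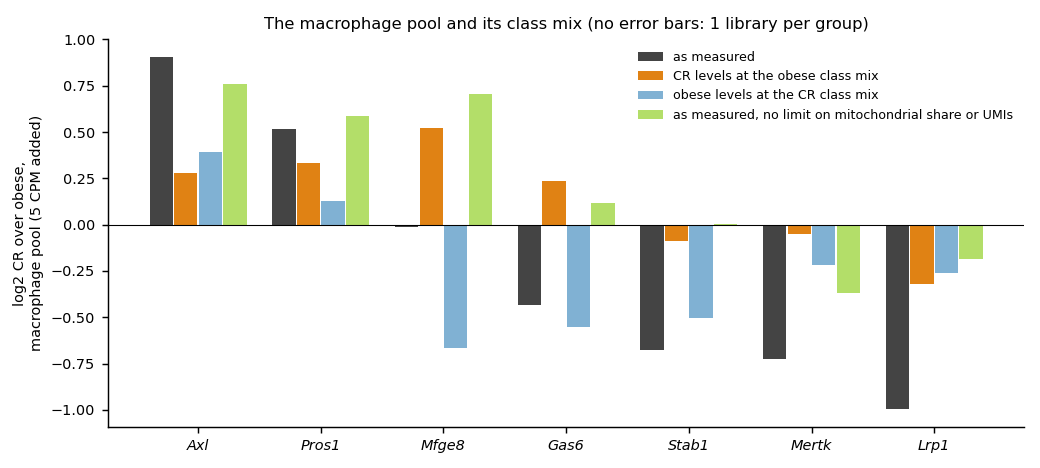
Log2 ratio of CR over obese for the MØ pool (vertical axis, 5 CPM added) as measured, with CR levels at the obese class mix, with obese levels at the CR mix, and as measured without limits on mitochondrial share and UMIs. Axl stays above 0 in all 4 bars, whereas Gas6 is −0.43 as measured, 0.24 at the obese mix and 0.12 without the limits. There are no error bars because each group has 1 library.

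A wider list of 67 clearance genes was read in the same way. In Fcgr4-high MØs 52 were measured, 2 higher and 6 lower by at least 2-fold (15.4%, against the 5.17% of all genes given above), with a median of 0.031 against 0.10 for all genes. Cd300lf, a receptor for phosphatidylserine, was higher (12.4 and 41.4 CPM, ratio 1.42 [1.00 to 1.83]), as was Abcg1, a cholesterol exporter (173 and 417 CPM, 1.24 [1.10 to 1.39]). The scavenger receptor Cd36 (510.2 and 112 CPM, −2.14 [−2.31 to −1.98]) and the mannose receptor Mrc1 (125 and 28.8 CPM, −1.95 [−2.24 to −1.66]) were lowest. T cell-like cells held 166 and 119.6 CPM of Cd36 and 35.5 and 13 CPM of Mrc1, so the CR level of Cd36 in Fcgr4-high MØs lay at background. The other lower genes were Cd300lb, P2ry6, Msr1 and Cd14, named after their values were seen. Receptors were thus among the lower genes and, with Cd300lf, among the higher ones. The wider list was not compared in the MHC class II split.

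In lipid-associated MØ-like cells 56 of the list were measured and none passed 2-fold (1.05% of all genes). The cystine transporter gene Slc7a11 (10.8 and 26.3 CPM, 0.99 [0.52 to 1.44]) and Ggcx, the carboxylase that matures Gas6 and protein S (2.83 and 9.49 CPM, 0.89 [0.31 to 1.44]), were highest. The engulfment genes Trio (−0.75 [−1.29 to −0.081]) and Dock2 (−0.55 [−0.88 to −0.22]) were lowest. In Lyve1-high MØ-like cells 4 of 50 were higher and 0 lower (8.0%, against 2.54% of all genes). They were led by the transglutaminase gene Tgm2 (3.12 and 21.7 CPM, 1.72 [1.01 to 2.29]) and Thbs1, which encodes the bridging protein thrombospondin-1 (3.12 and 14.5 CPM, 1.26 [0.49 to 1.91]). Rxra (−0.75 [−1.49 to 0.085]) and Socs3, an inhibitor of cytokine signalling (271 and 181 CPM, −0.57 [−0.82 to −0.33]), were lowest. The 2 upper genes there rest on 10 obese UMIs each. The 8 fibroblast markers of that class summed to 35.2 and 263 CPM, and the part of free RNA in these 2 genes was not tested. In T cell-like cells 46 of the list were measured and 0 were higher by 2-fold. None of 43 measured passed 2-fold in DC1-like cells (1.07% of all genes). In fibroblast-like cells 3 of 52 were higher and 11 lower (26.9%, against 6.71% of all genes). The lowest there were Mrc1 (96.2 and 3.02 CPM) and Cd14 (282.5 and 26.7 CPM), genes known from MØs, and the class includes the C1q-bearing subcluster of 46 obese and 15 CR cells, whose part in these counts was not tested.

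The genes most like each member over 31 profiles of classes and libraries were found by Pearson correlation of log2(CPM + 5). They were Lpl, Cd302 and Hebp1 for Axl (r from 0.85 to 0.89), Igfbp4, Vcam1 and Selenbp1 for Gas6, and Slc29a1, Sash1 and Plod1 for Pros1. For Mertk they were Adap2, Tmem86a and Slco2b1, for Stab1 Stard8, Pf4 and F13a1, for Lrp1 Cd302, Itgb5 and Lamp2, and for Mfge8 Rhoj, Tsc22d1 and Myl9. Mertk reached the 50 CPM required of a member only in the obese neutrophil- and mast cell-like cluster (50.5 CPM, 19 UMIs). That cluster carried MØ transcripts. The profiles share 2 libraries and their free RNA, and r is a description of likeness. Axl and Lrp1 shared Cd302 among their likest genes, while the lists of Axl and Gas6 had no gene in common.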

How the data were processed

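Live CD45+ cells of perigonadal VAT were profiled in 2 libraries, obese and CR. Per the labels and the study's methods, the authors aligned reads to mm10 and counted UMIs with Cell Ranger 2.2, and the deposited values are raw UMI counts per gene and barcode. Totals were 42948242 and 19696476 UMIs. All else was computed here in Python 3.11.15 (numpy 2.4.6, scipy 1.17.1, igraph 0.11.9, scanpy 1.11.5, matplotlib 3.10.9), with edgeR 4.0.16 for TMM factors only.

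Barcodes with at least 200 genes and a mitochondrial share and log UMI total within 3 scaled MADs above the library median were kept (5262 and 2987). The limit on mitochondrial share was 4.84% and 5.58%. The libraries were aligned by canonical correlation (25 components, 688 shared variable genes) and clustered by Louvain at resolution 0.6, and 19 clusters were named by the list with at least 3 markers 2-fold higher. Stromal clusters were clustered again, into 7. The doublet caller called 1 and 3 cells and so did not work. Removing the top 5% of doublet scores was tried instead. Members were always named, with the 2 highest and 2 lowest ratios of the wider list per MØ class and the 3 genes most like each member that reached 50 CPM in a profile. The members and lists were chosen with earlier results of these data known. The ratio and its interval were tested on simulated class sums, and the thinning step was not.

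Alternatives changed the cell limits, alignment, resolution, variable genes, naming by per-cell gates, scaling, pseudocount, free RNA and doublets. The neutrophil- and mast cell-like cluster was not compared between libraries, because its obese part carried MØ transcripts.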

Additional observations from a re-analysis of the deposited data

Results flagged for a closer look

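Stab1 ratios of CR over obese pointed different ways between classes. They were 0.60 [0.26 to 0.94] in monocyte-like cells, but −0.94 in Fcgr4-high MØs, −0.32 in lipid-associated MØ-like cells and −1.72 in fibroblast-like cells, each interval excluding 0 for counting error. Lrp1 was higher in CR fibroblast-like cells (0.29) and lower in Fcgr4-high MØs (−1.59) and lipid-associated MØ-like cells (−0.24). The differences between classes were not tested, since each group has 1 library. The signs were not stable. Stab1 turned to 0.17 in Fcgr4-high MØs without alignment and was above 0 in lipid-associated MØ-like cells under 6 alternatives, up to 0.82, where Lrp1 reached 0.79. The fibroblast values of both genes changed sign without the stromal subcluster that carries C1q transcripts.

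Barcodes over the mitochondrial limit, which entered no main comparison, carried most members at levels above those of all kept cells together. Timd4 was lower in the obese barcodes, at 1.81 CPM (4 UMIs) against 3.27 CPM, and Tyro3 is not compared because of its few UMIs. In the 464 obese barcodes these were 237 CPM of Axl, 32.1 of Mertk, 74.7 of Gas6, 90.1 of Pros1, 64.3 of Mfge8, 115 of Stab1 (2.49-fold over kept cells) and 344 CPM of Lrp1 (2.95-fold). In the 554 CR barcodes they were 215 CPM of Axl (1.28-fold), 36.3 of Mertk, 225 of Gas6 (3.62-fold), 132 of Pros1, 3.53 of Timd4, 278 of Mfge8, 192 of Stab1 (6.13-fold) and 509 CPM of Lrp1 (4.95-fold). The share of each class removed by the limit differed between the libraries, as given with the pool values, and its part in the ratios was not tested beyond the values without a limit. In the clustering without limits, lipid-associated MØ-like cells were 36.6% and 33.2% of barcodes over the limit. In the main clustering they were 17.1% and 5.29% of kept cells. The part of class make-up in the folds was not tested. Within CR lipid-associated MØ-like cells, Axl was 155 CPM over the limit and 160 CPM within it, and Lrp1 687 and 177 CPM.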

How the results depend on the processing

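Counting error, 1 library per group and unknown numbers of mice limit every comparison. Of 160 alternative values of the 10 main results, 116 stayed inside the main interval, 43 did not and 1 was counted as a change of sign. A change of sign was counted only where the main interval excluded 0. Gas6 in Lyve1-high cells, whose interval included 0, kept its sign in 14 of 16 alternatives. The cause was not tested unless stated. No paired analysis was possible because each group has 1 library. TMM factors alone shifted all genes by −0.11 (Fcgr4-high), −0.16 (lipid-associated), −0.26 (Lyve1-high), 0.028 (fibroblast-like), −0.22 (DC1-like) and −0.19 (all MØs), log2 CR over obese. Per-cell gates left 37 CR Lyve1-high cells and so no value there.

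Axl in Fcgr4-high MØs (0.61) was 0.24 without alignment, 0.41 with 2000 variable genes and, in splits chosen after seeing the data, 0.45 under and 1.02 at or above 5 MHC class II UMIs. Gas6 in Lyve1-high cells (0.071) was 0.54 with no limit on cells, 0.29 at 5 MADs, 0.28 without alignment, −0.12 with 2000 genes and −0.18 with TMM. Mertk of all MØs (−0.72) was −0.37 with no limit, −1.08 thinned and −0.44 with 20 CPM added. Stab1 of all MØs (−0.67) was 0.0034 with no limit, −0.87 without alignment, −0.43 by gates, −0.85 with TMM, −0.90 per cell and −0.95 thinned.

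Axl of Fcgr4-high against other MØs in obese (0.97) was 0.85 with no limit, 1.36 without alignment, 0.81 by gates, 1.11 per cell and 1.21 with free RNA subtracted, and in CR (1.56) 1.10 with 2000 genes and 1.83 with free RNA subtracted. Gas6 of Lyve1-high against other MØs in obese (2.67) was 3.03 with no limit, 3.06 at resolution 1.0, 2.90 with 2000 genes, 3.09 with no genes kept out of clustering, 3.46 by gates and 2.38 with 20 CPM, and in CR (3.31) 3.69 thinned, 2.87 with 20 CPM and 3.89 with free RNA subtracted. The non-haematopoietic share of Gas6 UMIs in obese (6.48%) was 4.80% at resolution 1.0, 4.23% without high doublet scores, 4.03% by gates and 5.23% without the C1q-bearing stromal subcluster, and in CR (46.4%) 37.6% with no limit, 42.0% at 5 MADs, 41.2% at resolution 1.0, 42.7% without high doublet scores, 32.0% by gates and 50% thinned.

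Signs changed for other values whose main interval excluded 0, as listed here. Values whose interval included 0 are not listed. Among them, Axl in lipid-associated cells kept its sign in 8 of 17 alternatives. Pros1 in Fcgr4-high MØs was −0.0010 without alignment and −0.38 under 5 MHC class II UMIs, and Stab1 there 0.17 without alignment. In lipid-associated cells Stab1 was 0.82 with no limit, 0.049 without alignment, 0.11 at resolution 1.0, 0.081 with 2000 genes, 0.17 with no genes kept out and 0.34 by gates, and Lrp1 0.79 with no limit and 0.047 at 5 MADs. Pros1 in Lyve1-high cells was −0.076 thinned, Gas6 of all MØs 0.12 with no limit, Stab1 in fibroblast-like cells 0.052 without that subcluster, and Lrp1 there −0.11 without high doublet scores and −0.074 without the subcluster.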

Other observations

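Cycling cells, a cluster led by Hist1h2ap, Birc5 and 2810417H13Rik with 309 obese and 100 CR cells, differed between the libraries in the same direction as Fcgr4-high MØs for Axl, Mertk and Lrp1. The C1q genes summed to 5570 and 5400 CPM in this cluster. Its make-up by cell type, and the part of that in these differences, was not tested. Axl was 112 CPM in obese tissue and 150.3 CPM under CR (ratio 0.41 [0.14 to 0.67]), Mertk 13 and 2.93 CPM (−1.18 [−1.73 to −0.34], 3 UMIs in CR) and Lrp1 111 and 57.6 CPM (−0.89 [−1.28 to −0.52]). Patrolling monocyte-like cells carried Lrp1 at 162 CPM in obese tissue and 97.4 CPM under CR and Axl at 72.4 and 59.3 CPM. In DC2-like cells Lrp1 was 60.9 and 51.2 CPM, above the 14.2 and 13.3 CPM of DC1-like cells.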
